A study of Mus musculus with 4 samples.

Results

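Connexins, pannexins and aquaporins are channel proteins, and 10 of their genes were followed here by RNA sequencing of neural stem cells sorted from the adult mouse brain, in 4 libraries: the connexins Gja1, Gjb6, Gjb2 and Gjc1, the pannexins Panx1 and Panx2, and the aquaporins Aqp1, Aqp4, Aqp9 and Aqp11. The genes were chosen by name, and each level is the sum over the gene's transcripts in a library. They are 10 of 32564 genes, and they hold 34 of the 99567 transcripts in each library's table. According to the sample labels, all 4 libraries held activated cells positive for EGFR, Prom1 and GFAP, taken by flow cytometry from untreated gfap:GFP mice (mixed CD1/C57BL/6 background) aged 3 months. The gfap:GFP transgene marks cells in which the Gfap promoter is active, which astrocytes share with these stem cells. The text of the series' design instead speaks of quiescent stem cells after intraventricular aCSF or miR204 antagomers. No label assigns either agent to a library, so the labels were followed, 1 group was formed and no groups were compared. If the design text applied, each SD and p-value given here could also hold a treatment difference. Whether different mice stand behind the libraries is not stated, so the p-values measure only the spread between these samples, which may be technical.

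Connexins assemble into hemichannels, which dock between neighbouring cells to form gap junctions that pass ions and small metabolites. Pannexins form channels in the membrane that do not normally dock and are known for releasing ATP. Aquaporins conduct water, and some also glycerol and other small solutes. In the adult brain, astrocytes are coupled by gap junctions and carry a dense array of Aqp4 water channels on their endfeet, and adult neural stem cells of the ventricular wall share much of this astrocyte expression programme.

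The libraries held between 16978938 and 23727664 estimated counts. Levels are given in TPM, a transcript level corrected for transcript length and library total. A gene was called above or below 1 TPM where its 4 log2(TPM + 1) values lay, on average, away from that level by a two-sided test (limma, Benjamini-Hochberg adjusted p under 0.05 over 19914 genes, n = 4). All 6 stem cell and sort markers were above 1 TPM, and their summed level lay between 749 and 1121 TPM. That sum averaged 886 TPM, of which Sox9 gave 329.4 TPM and Sox2 274.9 TPM. The sort markers averaged 149.5 TPM (Gfap), 89.7 TPM (Egfr) and 23.05 TPM (Prom1). Markers of other cell types were also present, and over all genes tested 62.8% were above 1 TPM and 23.2% below. All 8 oligodendrocyte, all 8 ependymal and all 8 microglia markers were above 1 TPM, with sums of 732 to 2351, 601 to 1211 and 163 to 523 TPM. Of the neuron markers 7 of 8 were above it (sum 1055 to 1311 TPM), and of the erythroid markers 4 of 5 (sum 59.9 to 2342 TPM). The neuron sum averaged 1135 TPM, of which Ppp1r1b gave 692.5 TPM and Camk2a 218.3 TPM. Of the choroid plexus markers 3 of 6 were above and 3 below (sum 16.4 to 34.5 TPM). Of the endothelial or mural markers 2 of 8 were above (sum 24.8 to 43.4 TPM), and Cdh5 and Kcnj8 had no count. That sum averaged 36.45 TPM, of which Pdgfrb gave 31.8 TPM. Of the leptomeningeal markers 1 of 6 was above (sum 10.9 to 13.9 TPM), and Lum and Slc22a6 had no count. Library 1 had the lowest sums for oligodendrocyte, ependymal, microglia, choroid plexus and erythroid markers. In RNA from a pool of sorted cells, fewer cells of a type and less RNA per cell cannot be told apart.

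Of the 10 channel genes, 9 stood above 1 TPM and 1, Aqp1, stood below it (limma, adjusted p under 0.05, n = 4). Among all genes tested 62.8% were above 1 TPM and 23.2% were below it. The median of the 10 mean levels was 9.57 TPM, and the median over all genes tested was 8.34 TPM. The levels ran in the order Gja1, Gjb6, Aqp4, Gjc1, Panx1, Panx2, Aqp11, Aqp9, Gjb2 and Aqp1. A gene was taken to differ from its neighbour in this order where it was higher in all 4 libraries and the mean log2 difference exceeded its SD. Gja1 over Gjb6 met this with a log2(TPM + 1) difference of 3.40 ± 0.28, Gjb6 over Aqp4 with 0.48 ± 0.18 and Aqp4 over Gjc1 with 2.08 ± 0.17 (SD, n = 4). Gjc1, Panx1, Panx2, Aqp11 and Aqp9, which follow one another in the order, were not separated step by step in this way. Aqp9 was higher than Gjb2 by 0.70 ± 0.51, and Gjb2 was higher than Aqp1 by 1.96 ± 0.66. The order of Aqp9 and Gjb2 turned when only protein-coding transcripts were summed: Aqp9 then stood at 4.33, 2.38, 0.241 and 2.07 TPM, below Gjb2 at 5.18, 2.48, 4.06 and 2.36 TPM in each library.

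**Figure D1:**
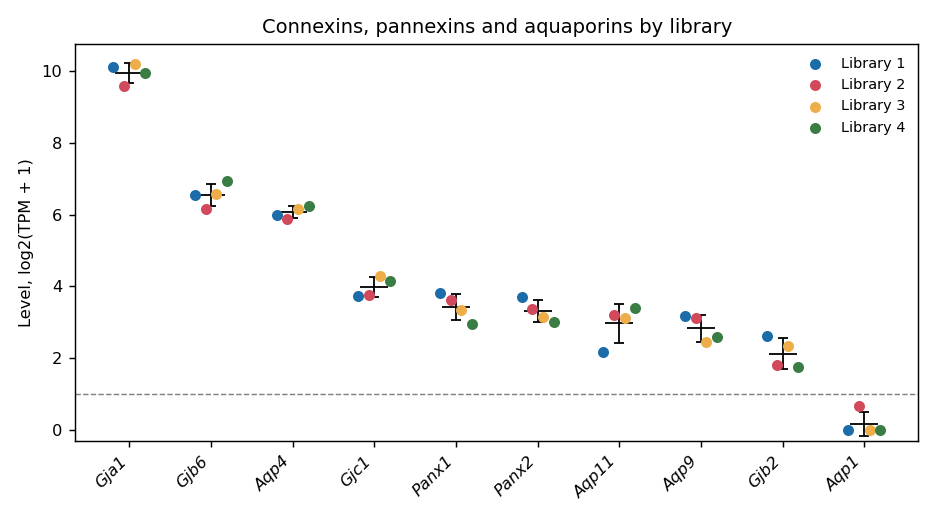
Level of each channel gene as log2(TPM + 1) in the 4 libraries (points), with the mean and SD (bars, n = 4) and a dashed line at 1 TPM. Gja1 stands alone at the top with a mean of 1003 TPM, Gjb6 and Aqp4 follow, 6 genes lie between 3.52 and 15.1 TPM, and Aqp1 has counts in library 2 only.

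Gja1 (ENSMUSG00000050953, chr10:56377330-56402513, plus strand, mm10) encodes the main gap junction protein of astrocytes. It stood at 1113, 758, 1165 and 978 TPM in libraries 1 to 4, from 51199, 32442, 37667 and 46044 estimated counts. Library 2 was the lowest, and the highest library was 1.54 times the lowest. The mean of 1003 ± 182 TPM (SD, n = 4) ranked 81 of 19914 genes tested and lay 8.95 above 1 TPM on the log2(TPM + 1) scale (limma, adjusted p = 1.54e-08). Gja1 held 90.2, 84.5, 88.7 and 83.9% of the summed TPM of all 20 connexin genes, a mean of 86.8 ± 3.08% (SD, n = 4). The tables held 1 of its 8 annotated transcripts, Gja1-201, a coding transcript, and the other 7 were not analysed here. The window from 250 bases before to 50 bases after its RefSeq start holds 8 CG dinucleotides, where the median of 32851 such mouse windows is 7. It is printed because Gja1 carries most connexin RNA in these cells (RefSeq, GRCm38.p6, chr10:56377050-56377349, plus strand, 5′ to 3′, with each CG in capitals).
Gja1: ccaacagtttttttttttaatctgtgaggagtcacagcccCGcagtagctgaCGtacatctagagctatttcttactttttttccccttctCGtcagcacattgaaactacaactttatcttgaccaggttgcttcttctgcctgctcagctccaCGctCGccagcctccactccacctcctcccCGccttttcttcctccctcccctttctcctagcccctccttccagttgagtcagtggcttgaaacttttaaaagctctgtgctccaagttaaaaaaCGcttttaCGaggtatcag

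Gjb6 (ENSMUSG00000040055, chr14:57123303-57133611, minus strand) encodes the other connexin typical of astrocytes. It stood at 92.5, 70.5, 93.8 and 121 TPM. Library 4 was the highest and library 2 the lowest. Its mean of 94.5 ± 20.7 TPM was 5.55 above 1 TPM on the log2(TPM + 1) scale (limma, adjusted p = 1e-07, n = 4), and it held 8.22 ± 1.47% of connexin TPM. The level of Gja1 was 12.03, 10.75, 12.4 and 8.08 times that of Gjb6 in libraries 1 to 4.

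Gjb2 (ENSMUSG00000046352, chr14:57098600-57104702, minus strand) encodes a connexin known from the inner ear and the leptomeninges. It lies 18600 bases from Gjb6 on the same strand. Gjb2 stood at 5.18, 2.48, 4.06 and 2.36 TPM, from 182, 81, 100 and 85 estimated counts. Libraries 1 and 3 were higher than libraries 2 and 4. Its mean of 3.52 ± 1.35 TPM was 1.13 above 1 TPM on the log2(TPM + 1) scale (limma, adjusted p = 0.00587, n = 4). Set against a level of 5 TPM instead, it lay on the other side, at -0.46 (adjusted p = 0.134). Gjb6 exceeded its neighbour Gjb2 in 4 of 4 libraries, with TPM ratios of 17.9, 28.4, 23.1 and 51.2 and a log2(TPM + 1) difference of 4.42 ± 0.54 (exact sign-flip permutation test, two-sided, p = 0.13, the smallest that 4 libraries allow, and 0.146 adjusted over 7 pairs). The start windows of these adjacent genes differ in base composition. That of Gjb2 holds 27 CG dinucleotides and 70.0% G and C, and 15.5% of all windows hold at least as many CG. That of Gjb6 holds 6 CG dinucleotides and 57.3% G and C, and 56.4% of all windows hold at least as many. Both are printed because the genes lie side by side and differ in level (RefSeq, GRCm38.p6, minus strand, 5′ to 3′, each CG in capitals; Gjb6 at chr14:57133562-57133861 and Gjb2 at chr14:57104653-57104952).
Gjb6: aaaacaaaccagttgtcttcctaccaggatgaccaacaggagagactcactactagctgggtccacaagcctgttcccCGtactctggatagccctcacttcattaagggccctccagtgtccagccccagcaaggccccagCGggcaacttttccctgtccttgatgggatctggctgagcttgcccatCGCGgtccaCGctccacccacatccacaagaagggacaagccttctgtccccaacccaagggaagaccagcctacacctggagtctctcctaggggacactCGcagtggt
Gjb2: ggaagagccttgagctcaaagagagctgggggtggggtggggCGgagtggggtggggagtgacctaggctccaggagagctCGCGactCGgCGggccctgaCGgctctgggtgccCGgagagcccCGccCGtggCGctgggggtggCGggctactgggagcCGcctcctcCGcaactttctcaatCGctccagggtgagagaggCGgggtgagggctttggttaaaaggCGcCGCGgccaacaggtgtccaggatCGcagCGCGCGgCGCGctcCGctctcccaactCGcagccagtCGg

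Gjc1 (ENSMUSG00000034520, chr11:102799579-102819700, minus strand) encodes a connexin of vascular smooth muscle, heart and some neurons and progenitors. It stood at 12.25, 12.7, 18.65 and 16.9 TPM, with libraries 3 and 4 above libraries 1 and 2. The mean of 15.1 ± 3.16 TPM was 2.99 above 1 TPM on the log2(TPM + 1) scale (limma, adjusted p = 4.83e-06, n = 4). Gja1 exceeded it in 4 of 4 libraries, by 5.96 ± 0.29 on that scale (exact sign-flip permutation test, p = 0.13, adjusted 0.146). Among markers of mural cells, where this connexin is also known, Rgs5 averaged 0.204 TPM and Kcnj8 had no count, while Pdgfrb averaged 31.8 ± 8.60 TPM.

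Of the 16 other connexin genes, 3 were above 1 TPM, 6 were below, 1 passed the test in neither direction, and 6 had no count in any library. Over all genes tested 62.8% were above and 23.2% below. Among those above it were Gjb1 at 13.15 ± 7.83 TPM and Gjc3 at 11.6 ± 5.29 TPM (SD, n = 4), both known as connexins of myelinating glia. Gjb1 stood at 3.07, 22.2, 13.3 and 14.1 TPM, and Gjc3 at 6.35, 14.3, 8.06 and 17.6 TPM. Library 1 was the lowest for both. The summed level of the oligodendrocyte markers was also lowest there, at 732 TPM in library 1 against 2009, 1802 and 2351 TPM in libraries 2, 3 and 4. Of these markers Mobp stood at 341, 335, 312 and 405 TPM and was not lowest in library 1. Their part in these levels was not tested. Gja1 and Gjb6 did not share this library order: Gja1 in library 1 was 1.15 times, and Gjb6 0.973 times, the mean of the other libraries, while Gjb1 was 0.186 times and Gjc3 0.476 times. Of the 5 astrocyte markers other than Gja1 and Gjb6 all 5 were above 1 TPM, with sums of 3973, 3190, 4277 and 4251 TPM. The lowest was in library 2, where Gja1, Gjb6 and Aqp4 were also at their lowest. Gja5, which passed in neither direction, was named after its values were seen: it had 75.1 estimated counts in library 1 and at most 4 in each other library.

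**Figure D2:**
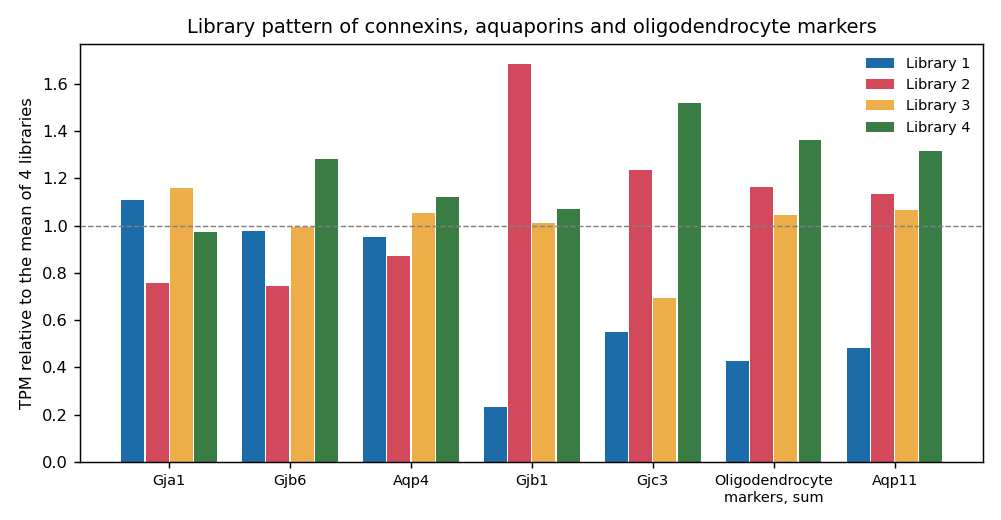
TPM of selected connexins and aquaporins, and the summed TPM of 8 oligodendrocyte markers, in each library (bars) relative to the mean of the 4 libraries (dashed line at 1). Gjb1, Gjc3, the oligodendrocyte sum and Aqp11 are lowest in library 1, while Gja1, Gjb6 and Aqp4 are lowest in library 2.

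Genes whose proteins bind or regulate connexins were listed with earlier results of these data known, as were the other gene lists. Their shares above 1 TPM therefore describe the lists chosen. All 9 genes of this list were above 1 TPM, with a median of 55.35 TPM, against 62.8% above and a median of 8.34 TPM over all genes tested. The highest were the ubiquitin ligase Nedd4 at 286 ± 31.2 TPM, beta-catenin (Ctnnb1) at 274 ± 29.2 TPM, the actin-binding drebrin (Dbn1) at 222 ± 28.9 TPM and N-cadherin (Cdh2) at 81.6 ± 8.07 TPM (SD, n = 4). The lowest were Cnst, which encodes a trafficking receptor for connexins, at 13.1 ± 2.26 TPM and caveolin (Cav1) at 4.88 ± 1.52 TPM. For Cav1 the call was lost when only its most abundant transcript was used (log2 difference 0.42, limma adjusted p = 0.188), and against a level of 5 TPM it lay at -0.067.

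Panx1 (ENSMUSG00000031934, chr9:15002128-15045478, minus strand) encodes the widely expressed ATP-release channel. It stood at 12.98, 11.25, 9.16 and 6.74 TPM. Library 1 was the highest and library 4 the lowest. Panx2 (ENSMUSG00000058441, chr15:89059734-89073567, plus strand) encodes a pannexin found mainly in the nervous system. It stood at 12.1, 9.42, 7.86 and 7.10 TPM, with the same library order. That order depended on short transcripts. With transcripts of at least 400 bases only, Panx1 stood at 11.22, 11.25, 7.84 and 6.74 TPM. Panx2 then stood at 5.41, 7.57, 4.92 and 4.32 TPM, so library 2 was the highest for both. Over all transcripts the means were 10.03 ± 2.70 TPM for Panx1 and 9.11 ± 2.19 TPM for Panx2. They lay 2.43 and 2.31 above 1 TPM on the log2(TPM + 1) scale (limma, adjusted p = 4.63e-05 for each, n = 4). Panx1 was higher in 3 of 4 libraries, by 0.12 ± 0.13 (exact sign-flip permutation test, p = 0.25). The order of this pair turned with the transcripts that were summed: over protein-coding transcripts only, Panx1 was lower than Panx2, at -0.69 ± 0.28, and over the most abundant transcript of each gene the difference was -0.028 ± 0.735. Panx3, the remaining pannexin, had no count in any library. A count of 0 allows up to 3 counts, which is 0.0795 to 0.116 TPM for Panx3. Such limits cover counting error only.

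Of 10 genes for the ATP and adenosine pathway that pannexins and hemichannels feed, 8 were above 1 TPM and 2 passed in neither direction, with a median of 20.3 TPM, against 62.8% above, 13.9% in neither direction and a median of 8.34 TPM over all genes tested. The highest were the ATP-hydrolysing ectoenzyme Entpd2 at 157 ± 46.4 TPM, the adenosine receptors Adora2b at 95.5 ± 14.9 TPM and Adora1 at 39.8 ± 4.40 TPM, and the ectoenzyme Entpd1 at 20.96 ± 6.45 TPM (SD, n = 4). The lowest were the ATP and UTP receptor P2ry2 and Nt5e, the ectoenzyme that makes adenosine from AMP. P2ry2 stood at 5.91, 2.41, 2.83 and 0 TPM, highest in library 1 and without a count in library 4, and it was above 1 TPM when library 4 was left out (1.17 on the log2(TPM + 1) scale, limma adjusted p = 0.03). Nt5e stood at 0.511, 1.01, 2.48 and 1.82 TPM, with library 1 the lowest.

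Aqp4 (ENSMUSG00000024411, chr18:15389496-15410982, minus strand) encodes the water channel of astrocyte endfeet and ependymal cells. It stood at 63.1, 57.9, 70.0 and 74.5 TPM, from 4852, 4141, 3787 and 5854 estimated counts. The libraries lay close together, the highest 1.29 times the lowest, the smallest such ratio among the 9 genes with counts in every library. The mean of 66.4 ± 7.35 TPM was 5.07 above 1 TPM on the log2(TPM + 1) scale (limma, adjusted p = 2.9e-08, n = 4). Aqp4 held 83.9, 75.8, 83.1 and 82.8% of the TPM of all 12 aquaporin genes. Ependymal markers, which could bring Aqp4 RNA, summed to 601, 1211, 795 and 996 TPM in libraries 1 to 4. Their sum was highest in library 2, where Aqp4 was lowest, and their part in the level of Aqp4 was not tested.

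Aqp4 protein is known in a long and a short form that begin at different methionines of one reading frame. The tables held 1 of 11 annotated transcripts of the gene, Aqp4-201, and the other 10 were not analysed here, so the whole level was assigned to that transcript and the forms could not be told apart. In the annotated Aqp4-201 the reading frame runs for 323 codons from its first ATG, and the next ATG in frame is codon 23, which leaves 301 codons. Both ATG codons therefore lie on Aqp4-201, and its TPM does not divide between them. Whether either form also has a transcript of its own among the 10 not analysed was not examined.

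Of 14 listed genes whose proteins anchor Aqp4 at the membrane or act with it in volume control, 13 were above 1 TPM. Their median was 37.0 TPM, against 62.8% above and a median of 8.34 TPM over all genes tested. The highest were Mlc1 at 658 ± 116 TPM, its partner Hepacam at 190 ± 23.5 TPM, the potassium channel Kcnj10 at 144 ± 18.4 TPM and dystrobrevin (Dtna) at 124 ± 14.3 TPM (SD, n = 4). The lowest were utrophin (Utrn) at 7.46 ± 0.598 TPM and the cation channel Trpv4 at 1.69 ± 0.464 TPM, which passed in neither direction (limma, adjusted p = 0.0886) and was above 1 TPM without library 3 (adjusted p = 0.0484).

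**Figure D3:**
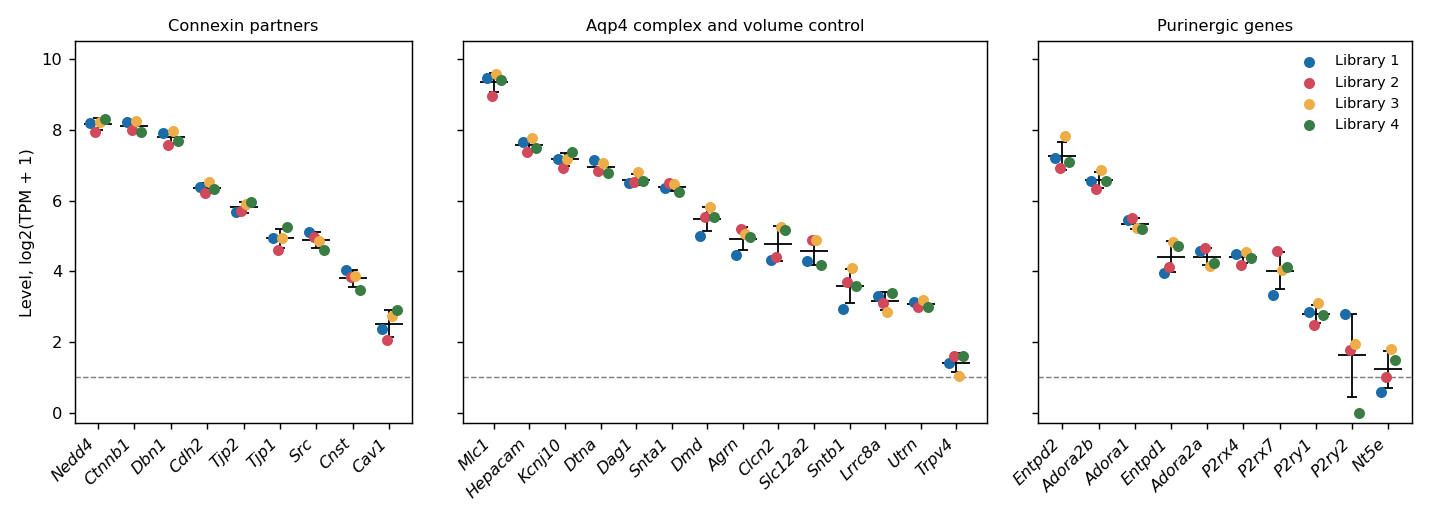
Levels as log2(TPM + 1) of connexin partners, of genes of the Aqp4 complex and volume control, and of purinergic genes, in the 4 libraries (points) with mean and SD (bars, n = 4) and a dashed line at 1 TPM. Mlc1, Nedd4, Ctnnb1 and Dbn1 have means of 222 TPM or more, while Trpv4, P2ry2 and Nt5e are the genes not called above 1 TPM.

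Aqp1 (ENSMUSG00000004655, chr6:55336432-55348555, plus strand) encodes the water channel of choroid plexus epithelium and red blood cells. It had no count in libraries 1, 3 and 4 and 21 estimated counts in library 2, which is 0.586 TPM. Up to 3 counts are allowed by each 0, which is 0.0778, 0.111 and 0.076 TPM in libraries 1, 3 and 4. On the log2(TPM + 1) scale Aqp1 was below 1 TPM by limma (-0.83, adjusted p = 0.0012, n = 4). By an F test computed from edgeR's quasi-likelihood fit, Aqp1 passed in neither direction (log2 TPM without a pseudocount -2.74, adjusted p = 0.147). The choroid plexus markers had their highest sum, 34.5 TPM, in library 2, against 16.4, 26.9 and 32.0 TPM in libraries 1, 3 and 4. Transthyretin (Ttr), the hallmark secreted protein of that epithelium, stood at 1.09, 0.52, 0.345 and 0 TPM in libraries 1 to 4. Kcne2, another marker of the list, had 15 estimated counts in library 2 (0.701 TPM) and none in the other libraries, as Aqp1 did. The erythroid markers were highest in library 4, at 2342 TPM, where Aqp1 had no count. Their part in the count of library 2 was not tested. Aqp4 exceeded Aqp1 in 4 of 4 libraries, by 5.90 ± 0.47 on the log2(TPM + 1) scale (exact sign-flip permutation test, p = 0.13, adjusted 0.146).

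Aqp9 (ENSMUSG00000032204, chr9:71110659-71168682, minus strand) encodes an aquaglyceroporin that passes glycerol and other small solutes as well as water. It stood at 8.09, 7.64, 4.45 and 4.997 TPM, from 187, 108, 25 and 93.6 estimated counts. Libraries 1 and 2 were higher than libraries 3 and 4. The mean of 6.29 ± 1.84 TPM was 1.83 above 1 TPM on the log2(TPM + 1) scale (limma, adjusted p = 0.000359, n = 4). The call was lost when only protein-coding transcripts were summed (0.53, adjusted p = 0.193) or when the most abundant transcript stood for the gene (0.16, adjusted p = 0.519).

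Aqp11 (ENSMUSG00000042797, chr7:97724006-97738289, minus strand) encodes an aquaporin of intracellular membranes. It stood at 3.48, 8.20, 7.71 and 9.52 TPM, from 126, 180, 143 and 251 estimated counts. These TPM values also depend on how the counts were divided among transcripts of unlike length, which is described below. Library 1 was the lowest, at 0.41 times the mean of the other libraries, and the highest library was 2.74 times the lowest, the largest such ratio among the 9 genes with counts in every library. The mean of 7.23 ± 2.62 TPM was 1.97 above 1 TPM on the log2(TPM + 1) scale (limma, adjusted p = 0.000546, n = 4). Aqp4 exceeded both in 4 of 4 libraries, Aqp9 by 3.24 ± 0.51 and Aqp11 by 3.10 ± 0.52 on that scale (exact sign-flip permutation test, p = 0.13 and adjusted 0.146 for each). The 8 other aquaporin genes contributed little: none was above 1 TPM, 3 were below, 4 had no count, and Aqp7, named after its values were seen, passed in neither direction at 0.955 ± 0.624 TPM. Of the 4 other aquaporin genes with a count, 0.0% were above and 75.0% below, against 62.8% and 23.2% over all genes tested.

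The division of each gene's level among its transcripts was described without a test. kallisto, the program that estimated the counts, splits reads that several transcripts share, and TPM divides each estimate by the effective length of the transcript, so a few counts on a very short transcript become a large share. Of the 34 channel gene transcripts, 31 had a count; 12 of these were above 1 TPM, 6 were below and 13 passed in neither direction, against 30.9% above and 29.0% below over all 68226 transcripts tested (limma, adjusted over all of them). The count above 1 TPM was 8 without library 1, 10 without library 2, 6 without library 3 and 10 without library 4. Gja1, Gjb2, Aqp1 and Aqp4 had 1 transcript each in the tables, and the other 6 genes had between 3 and 10.

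For Gjb6 the coding transcript Gjb6-201 held 86.6, 84.7, 87.4 and 84.4% of TPM, and 97.7 ± 0.605% of estimated counts (SD, n = 4). Most of the difference lay with Gjb6-203, a processed transcript of 201 bases without a reading frame, and the rest with the coding transcript Gjb6-202, which held 4.37 ± 1.38% of TPM and 1.87 ± 0.607% of counts. The annotated coding sequence of Gjb6-202 has 521 bases, not a whole number of codons. Gjb6-203 held 9.87 ± 1.51% of TPM on 11, 9, 6.1 and 15.1 estimated counts, which were 0.442% of the counts of the gene.

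For Gjc1 the coding transcript Gjc1-201 held 87.1, 81.8 and 88.6% of TPM in libraries 1, 2 and 4, and 36.1% in library 3. In library 3 the coding transcript Gjc1-202, which has the same reading frame length of 396 codons and another start, held 30.0% on 106 estimated counts, against 0, 6.7 and 0 counts in libraries 1, 2 and 4. The processed transcript Gjc1-204 of 247 bases held 24.5% there on 5.3 counts. Reads that separate these transcripts are few: 6.35% of the 31-base words of Gjc1-201 and 10.43% of those of Gjc1-202 occur in no other annotated transcript. The 3 coding transcripts together held 88.7 ± 10.1% of TPM.

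For Panx1 the coding transcript Panx1-202 held 28.2, 57.2, 29.8 and 75.0% of TPM, and Panx1-201, annotated as a target of nonsense-mediated decay, held 47.7, 42.8, 55.75 and 25.0%. The coding transcript was the larger in libraries 2 and 4 and the smaller in libraries 1 and 3. Words found only in Panx1-201 were 1.48% of its sequence. That share was counted against an annotated Panx1-202 of 5732 bases. The version behind the counts has 2699 bases, so the share that applied there may differ. For Panx2 the coding transcript Panx2-203 held 38.5, 80.4, 62.6 and 27.6% of TPM and 82.8 ± 21.1% of estimated counts. Panx2-201, an annotated coding fragment of 355 bases, held 37.8 ± 14.5% of TPM on 20.9, 5.4, 6.4 and 9.3 counts, or 4.33 ± 2.50% of counts. With transcripts of at least 400 bases only, an alternative chosen after seeing the data, the mean of Panx2 was 5.56 ± 1.42 TPM and that of Panx1 was 9.26 ± 2.32 TPM.

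**Figure D4:**
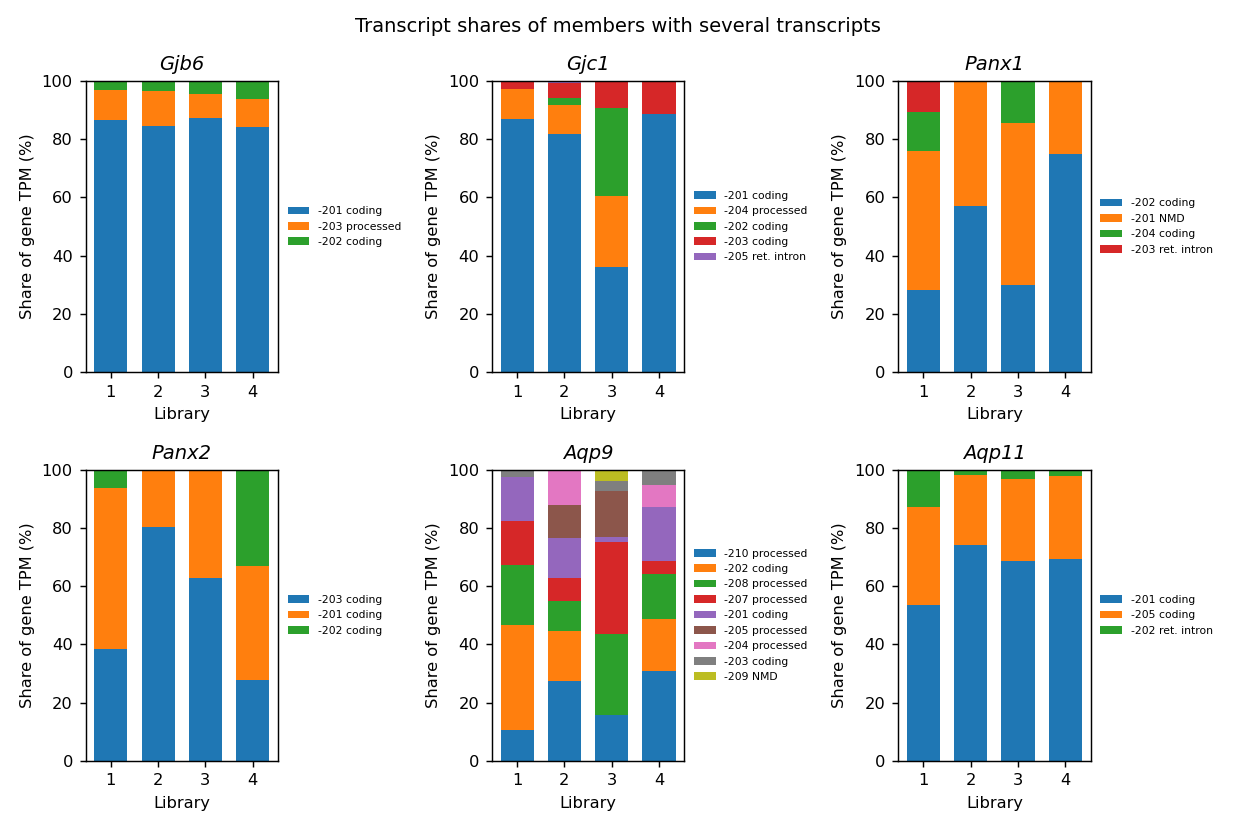
Share of gene TPM held by each transcript in libraries 1 to 4 (stacked bars, percent) for the 6 genes with several transcripts in the tables, with the annotated class of each transcript. Gjb6 divides alike in all libraries, with Gjb6-201 between 84.4 and 87.4%, whereas Gjc1-201 is at 36.1% in library 3 and Panx1-202 runs from 28.2 to 75.0%.

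For Aqp9 10 transcripts were listed and 9 had a count. Processed transcripts without a reading frame held 66.1 ± 18.8% of TPM and the 3 coding transcripts 32.9 ± 20.5% (SD, n = 4), which was 4.33, 2.38, 0.241 and 2.07 TPM in libraries 1 to 4. Library 3 had the least coding Aqp9: Aqp9-202 had 113, 47.6, 0 and 35.6 estimated counts and Aqp9-201 had 47.6, 38.3, 2.4 and 36.4. The processed transcript Aqp9-210 of 422 bases held 21.1 ± 9.56% of TPM on at most 8 counts in a library, and 6.13 ± 2.84% of counts. Aqp9-208 held 18.6 ± 7.60% and Aqp9-207 14.8 ± 11.9% of TPM, and 10.6 ± 9.64% and 6.51 ± 8.35% of counts. The coding transcripts led by the other unit: Aqp9-202 held 35.6 ± 25.6% and Aqp9-201 27.4 ± 13.1% of estimated counts. On average each held more of the counts than any processed transcript did, so on average the larger processed share is one of TPM only. Library 3 was an exception. There Aqp9-208 had 6.3 and Aqp9-207 4.7 estimated counts, against 0 for Aqp9-202 and 2.4 for Aqp9-201. Aqp9-201 codes for 321 residues and Aqp9-202 for 295, and they begin at 71162633 and 71163289 on chromosome 9, positions at which RefSeq also places starts of this gene. The start windows are printed because the main coding transcripts begin at these different places. That of Aqp9-201 holds 4 CG dinucleotides and that of Aqp9-202 holds 1, and 68.6 and 94.6% of all windows hold at least as many (RefSeq, GRCm38.p6, minus strand, 5′ to 3′, each CG in capitals; chr9:71162584-71162883 and chr9:71163240-71163539).
Aqp9-201 start: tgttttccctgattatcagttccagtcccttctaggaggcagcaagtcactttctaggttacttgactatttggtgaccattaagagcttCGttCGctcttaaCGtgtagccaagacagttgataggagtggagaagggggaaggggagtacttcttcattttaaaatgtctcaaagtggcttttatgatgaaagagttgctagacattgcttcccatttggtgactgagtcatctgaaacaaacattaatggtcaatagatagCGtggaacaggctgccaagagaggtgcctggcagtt
Aqp9-202 start: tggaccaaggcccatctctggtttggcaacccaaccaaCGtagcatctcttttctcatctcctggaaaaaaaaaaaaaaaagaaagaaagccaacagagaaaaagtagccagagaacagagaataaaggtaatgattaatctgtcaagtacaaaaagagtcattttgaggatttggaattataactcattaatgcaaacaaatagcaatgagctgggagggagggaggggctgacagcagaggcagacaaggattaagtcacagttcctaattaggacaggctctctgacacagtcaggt

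For Aqp11 the coding transcripts exchanged rank with the unit. Aqp11-201 (896 bases) held 53.5, 74.15, 68.6 and 69.5% of TPM but 28.5 ± 8.14% of estimated counts, and Aqp11-205 (3737 bases) held 28.6 ± 4.03% of TPM and 57.5 ± 4.22% of counts (SD, n = 4). Aqp11-201 is almost wholly contained in other transcripts, with 3.12% of its words its own, while 74.2% of those of Aqp11-205 are its own. The annotated coding sequence of Aqp11-201 has 647 bases, not a whole number of codons, so it is incomplete. That of Aqp11-205 has 813 bases and 271 codons. The retained-intron transcript Aqp11-202 held 12.7% of TPM in library 1, where the gene was lowest, against 1.95, 3.28 and 2.01% in libraries 2, 3 and 4.

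**Figure D5:**
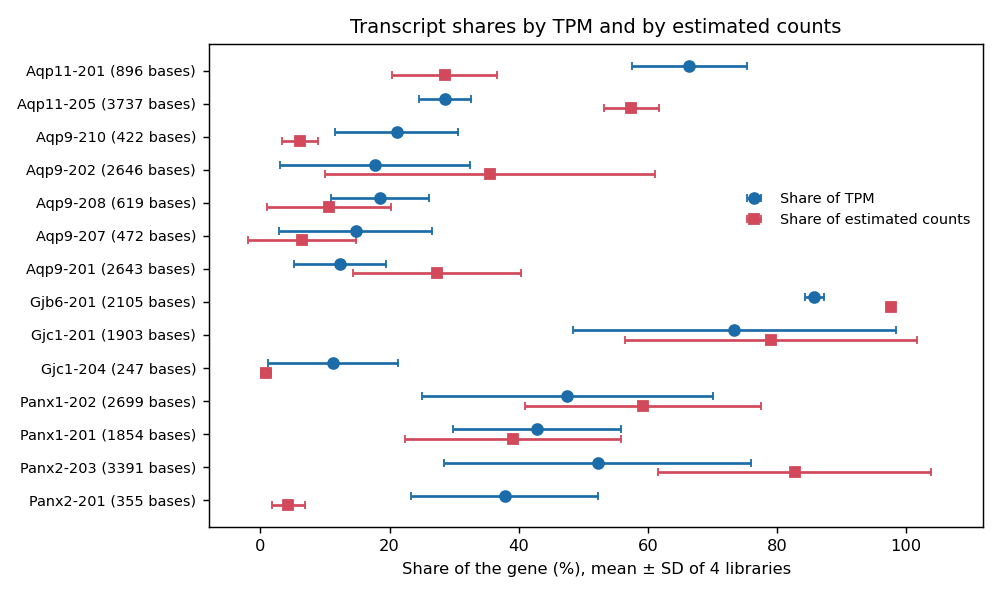
Share of each gene held by its main transcripts, by TPM (circles) and by estimated counts (squares), as mean and SD of 4 libraries, with transcript lengths in bases. Short transcripts such as Panx2-201, Gjc1-204 and Aqp9-210 have a larger share of TPM than of counts, and the order of Aqp11-201 and Aqp11-205 changes with the unit.

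The genes nearest to Gja1, Gjb6 and Aqp4 in level over the same 4 libraries were listed by the root mean square difference of log2(TPM + 1), a measure of likeness that follows the mean level and the library order together. For Gja1 they were Prnp (0.063), Ttyh1 (0.089) and Ldhb (0.099). For Gjb6 they were Gipc1 (0.091), Polr2k (0.095) and Nadk (0.1), and for Aqp4 they were Cpsf3 (0.031), Tpgs1 (0.043) and 1110008P14Rik (0.048). With 4 libraries and 19913 genes searched for each, close matches are a description of these libraries only. Prnp stood at 1023, 746, 1152 and 964 TPM in libraries 1 to 4, beside 1113, 758, 1165 and 978 TPM for Gja1.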

How the data were processed

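RNA of sorted cells was measured in 4 libraries of 1 group. PicoPure RNA extraction, SMART-Seq v4 cDNA and paired-end HiSeq sequencing are named per the labels' protocols. The tools kallisto and sleuth and the build mm10 are named per the submitters' processing notes. Their versions, the transcript release and the use of strand are not given in these sources. The deposited files give an estimated count per transcript, in which shared reads are divided by estimate. The deposited TPM is that count per effective length, scaled to a fixed total over all transcripts.

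TPM was summed per gene with GENCODE M21 (GRCm38) by transcript identifier: 98294 of 99567 transcripts matched, and the rest held 2.59 to 4.56% of TPM. Shared sequence was checked with 31-base words on both strands. At least 97.9% of the words of each transcript of the 10 genes occurred in no other gene. For Gja1-201, Aqp4-201 and Panx1-202 the tables hold another version than the annotation, so words and codons are those of the annotated one. Start windows came from RefSeq, and 7 of the 10 genes matched one. Depth was 16978938 to 23727664 estimated counts, and no molecular identifiers are named.

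Each of 19914 genes with a count was tested against 1 TPM with limma 3.58.1 on log2(TPM + 1) (two-sided, with a trend of variance on level; Benjamini-Hochberg adjusted p under 0.05), and 68226 transcripts likewise. The pseudocount of 1 understates differences of low genes. The 7 pairs of genes were tested by exact sign-flip permutation over libraries, two-sided. Transcript shares had no test.

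The genes and lists were chosen with earlier results of these data known. Named were all 10 genes, their transcripts of at least 10% of the gene's mean TPM, other family members above 1 TPM, the 4 highest and 2 lowest of each partner list, the 2 highest of each marker list where a result touches them, and the 3 nearest genes of Gja1, Gjb6 and Aqp4. Gjb6-202, Gjb6-203, Gjc1-202, Aqp11-202, Rgs5, Kcnj8, Cdh5, Lum, Slc22a6, Kcne2 and Ttr fall outside that rule and were named after their values were seen, and some genes that the rule selects are not reported here.

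The settings varied were the pseudocount (0.1), the minimum count (mean of 5), the level tested (5 TPM), the scaling (over nuclear protein-coding genes, by TMM and by DESeq2 1.42.0), the test (edgeR 4.0.16 on estimated counts rounded to whole numbers), the unit of pairs (CPM) and shares (counts), and the transcripts summed (most abundant, or protein-coding only), and each library was left out in turn. The edgeR result was an F test computed from the deviances of its quasi-likelihood fit, not by its own test function. Where TPM was 0, the count expected at 1 TPM was filled in from the gene's other libraries. R 4.3.3 and Python 3.11.15 with pandas 2.3.3 were used.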

Additional observations from a re-analysis of the deposited data

Results flagged for a closer look

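In 65 sets of 4 library values the highest or lowest value was compared with the rest by its gap as a share of the range (Dixon's criterion). Chance gives about 1 in 20 such sets, and 3 of the 65 passed. Aqp1 stood at 0.586 TPM in library 2 and had no count in the other libraries, which gives the largest possible gap. The coding transcript Gjc1-201 held 36.1% of Gjc1 TPM in library 3, against 81.8 to 88.6% in the others. The microglia marker Ctss stood at 25.8 TPM in library 1, against 65.8 to 71.4 TPM in the others.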

How the results depend on the processing

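Of the 10 channel genes, 9 stood above 1 TPM under each alternative except a level of 5 TPM (6), the most abundant transcript (8) and protein-coding transcripts only (8). The number below was 0 with edgeR and 1 otherwise. Over all genes the number below, 4628, became 949 with a minimum mean of 5 counts, 7528 at 5 TPM, 1795 with edgeR and 2773 over protein-coding transcripts. Over all transcripts the number below, 19798, became 4537 with the minimum and 43139 at 5 TPM, and the number above, 21091, became 12486 at 5 TPM. Transcripts of the 10 genes numbered 2 below with the minimum, 19 below and 5 above at 5 TPM, and 6 to 10 above with a library left out. Panx1 minus Panx2 was -0.028 over the most abundant transcripts and -0.69 over protein-coding ones. Shares by counts were 97.7% for Gjb6-201, 82.8% for Panx2-203, 6.13% for Aqp9-210 and 28.5% for Aqp11-201. Shares among protein-coding transcripts were 95.2% for Gjb6-201 and 83.7% for Panx1-202.

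Of 780 values for 60 single genes, 13 kept their sign and lost their call, 10 kept their sign and gained one, and 10 changed sign. A value that changed sign was counted only as such, also where its call was lost or gained. At 5 TPM the sign changed for Gjb2 (-0.46), Cav1 (-0.067), Col1a1 (-1.005), Nt5e (-1.36), P2ry2 (-0.96), Pecam1 (-0.30) and Trpv4 (-1.18). Over the most abundant transcript it changed for P2ry2 (-0.085) and Trpv4 (-0.33), and over protein-coding transcripts for Pecam1 (-0.61). A higher level, a minimum or fewer transcripts changes these values by its construction; for the other changes the cause was not tested. No paired analysis was possible because the labels give 1 group, with no replicate numbers shared between groups. With 4 libraries the sign-flip test cannot go below 0.13, and a count of 0 allows up to 3 counts.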
